A study of Rattus norvegicus with 4 samples.

Results

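The m6A peaks that lie in exons of non-coding RNAs were described in the arcuate nucleus of the hypothalamus (ARC) of female Sprague-Dawley rats at 5 weeks of age and at 3 weeks of age. A peak was taken as a member when the authors' annotation of the deposited lists placed it in an exon of a non-coding RNA, and mitochondrial rows were left out. There were 1542 such peaks among the 33042 peaks listed at 5 weeks (4.67%) and 1374 among the 29639 listed at 3 weeks (4.64%). In the deposited comparison of the ages they were 441 of 12691 rows. The peaks lay in 896 genes at 5 weeks and 857 genes at 3 weeks, and 1045 genes had a peak in either list.

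The assay was methylated RNA immunoprecipitation sequencing (MeRIP-seq), in which fragmented poly(A)-selected RNA was pulled down with an antibody to N6-methyladenosine (m6A) and sequenced beside the unselected input RNA. The early pubertal group of 5-week-old rats and the prepubertal group of 3-week-old rats were each 1 pool of ARC tissue from 3 untreated rats, sequenced as 1 immunoprecipitated (IP) library and 1 input library. There are therefore no replicates: every value below describes 4 libraries, no test between the ages was possible, and the spread between animals is unknown. The files list peaks with a p-value under 0.05 and hold no counts of reads, so sequencing depth is unknown, and a gene with no listed peak may carry m6A below that limit or may have little RNA.

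Adenosine methylation is written on messenger and long non-coding RNAs mainly by the METTL3 and METTL14 complex often in a sequence context whose core is GGAC, and it is removed by the demethylases FTO and ALKBH5. Structural RNAs have writers of their own. METTL16 methylates U6, the small nuclear RNA (snRNA) that sits at the catalytic heart of the spliceosome. ZCCHC4 methylates 28S ribosomal RNA (rRNA) and METTL5 methylates 18S rRNA near its 3′ end. The antibody also recognises the related modified base m6Am, which is found beside the cap and inside U2 snRNA.

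The listed genes were set against the defining genes of the tissue by whether a peak was listed at all, which is a statement on peaks and not on expression. Of 13 genes of arcuate and other neurons, 10 had one in the 5-week list and 8 in the 3-week list; Npy, Cartpt, Th and Snap25 were among these, Agrp, Ghrh and Kiss1 had none at either age, and Pomc and Tac3 had one at 5 weeks alone. Of 15 genes of glia, vessels, ependyma and neighbouring tissues, 9 and 8 were listed in turn. The pituitary genes Gh1 and Prl, the choroid plexus gene Ttr, and Cldn5, Nr5a1 and Rax had none at either age, and Vim had none at 3 weeks. Genes of cells within the tissue and of neighbouring tissues were thus both among those without a peak.

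The microRNAs are the members whose sequence can be shown, because RefSeq (GRCr8) gives the sequences of all 9 microRNA genes that had a peak. For Mir219a1, Mir431, Mir3592 and Mir3597-2 the listed peak had exactly the length of the RefSeq hairpin. Small RNA peaks mostly filled their listed gene, with a median of 98.7% of it at 5 weeks and 98.0% at 3 weeks. The match in length therefore does not show whether the hairpin or a longer transcript was pulled down, which was not tested. These 4 hairpins are printed 5′ to 3′ with the core motif GGAC in capitals where it occurs, searched on the RNA strand only.
Mir219a1: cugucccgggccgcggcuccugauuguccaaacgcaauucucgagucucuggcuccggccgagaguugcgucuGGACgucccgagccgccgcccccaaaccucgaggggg
Mir431: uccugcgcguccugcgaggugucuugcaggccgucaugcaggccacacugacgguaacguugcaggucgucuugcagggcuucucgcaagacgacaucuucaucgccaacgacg
Mir3592: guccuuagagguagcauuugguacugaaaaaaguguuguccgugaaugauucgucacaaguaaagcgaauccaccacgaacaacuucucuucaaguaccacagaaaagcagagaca
Mir3597-2: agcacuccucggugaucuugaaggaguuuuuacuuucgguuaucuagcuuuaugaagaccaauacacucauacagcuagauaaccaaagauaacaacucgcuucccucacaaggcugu
Of these 4 hairpins the motif stood in Mir219a1 alone, starting at base 74, inside the 3′ arm. Among all 419 rat hairpins of the table, 99 (23.6%) held it. A match is a description of the letters and not a methylated site.

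Mature microRNAs are shown with the seed, bases 2 to 8, in capitals: rno-miR-3556b and rno-miR-1949 because their genes are the microRNAs with a row in the comparison of the ages, and rno-miR-219a-1-3p because it lies in the arm of Mir219a1 that holds GGAC.
rno-miR-3556b: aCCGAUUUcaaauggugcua
rno-miR-1949: uAUACCAGgaugucagcauaguu
rno-miR-219a-1-3p: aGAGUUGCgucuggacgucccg
RefSeq lists 13 mature sequences under the 9 genes, with 13 different seeds. It lists miR-219a-5p under Mir219-2 alone, but the Mir219a1 hairpin holds the same letters from base 21, so this arm and its seed are common to both genes. For Mir219-2 the deposited lists gave the plus strand and RefSeq the minus strand, and its sequence is therefore not shown.

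Long non-coding RNAs (lncRNAs) made up most of the peaks, with 1312 at 5 weeks (85.1%) and 1141 at 3 weeks (83.0%). Pseudogenes held 190 and 180 peaks at 5 and 3 weeks. Small structural and regulatory RNAs held 40 peaks at 5 weeks (2.59%) and 53 at 3 weeks (3.86%). These were snRNAs with 18 and 24 peaks, rRNAs with 8 and 14, microRNAs with 4 and 6, small nucleolar RNAs (snoRNAs) with 4 and 3, signal recognition particle (SRP) RNA with 3 and 3, Y RNAs with 2 and 2, and 1 vault RNA at both ages. No symbol was given for 732 of the 1045 genes, which are listed by identifier alone.

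The strength of a peak is the deposited log2 enrichment, the log2 ratio of the IP signal over the input signal. Its median over the non-coding peaks was 2.87 at 5 weeks, a 7.33-fold enrichment, and 3.38 at 3 weeks, a 10.4-fold enrichment. The other peaks, which the files place in protein-coding genes, had medians of 2.80 and 3.16. The non-coding peaks thus sat close to the coding ones in the typical case, and the 3-week list had the higher median in both sets. They were shorter, with a median span on the genome of 375 bases at 5 weeks and 383 bases at 3 weeks, against 938 and 1006 bases for the other peaks, where a span includes any introns that a peak crosses.

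Among the small RNAs, the snRNAs and rRNAs had higher medians than the lncRNAs at both ages. The median log2 enrichment was 8.92 over the snRNA peaks at 5 weeks and 9.20 at 3 weeks, and 6.87 and 8.27 over the rRNA peaks. It was 2.83 and 3.23 over the lncRNA peaks, and 3.06 and 3.82 over the pseudogene peaks. The small RNAs other than snRNA and rRNA had 2.85 over 14 peaks at 5 weeks, level with the lncRNAs, and 4.73 over 15 peaks at 3 weeks. Within the snRNAs the range was wide, from 1.95 to 13.03 at 5 weeks and from 2.26 to 12.94 at 3 weeks, so the class was not uniformly high. Of the non-coding peaks, 4.41% at 5 weeks and 6.04% at 3 weeks reached a log2 enrichment of 8, against 1.10% and 1.74% of all peaks.

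**Figure D1:**
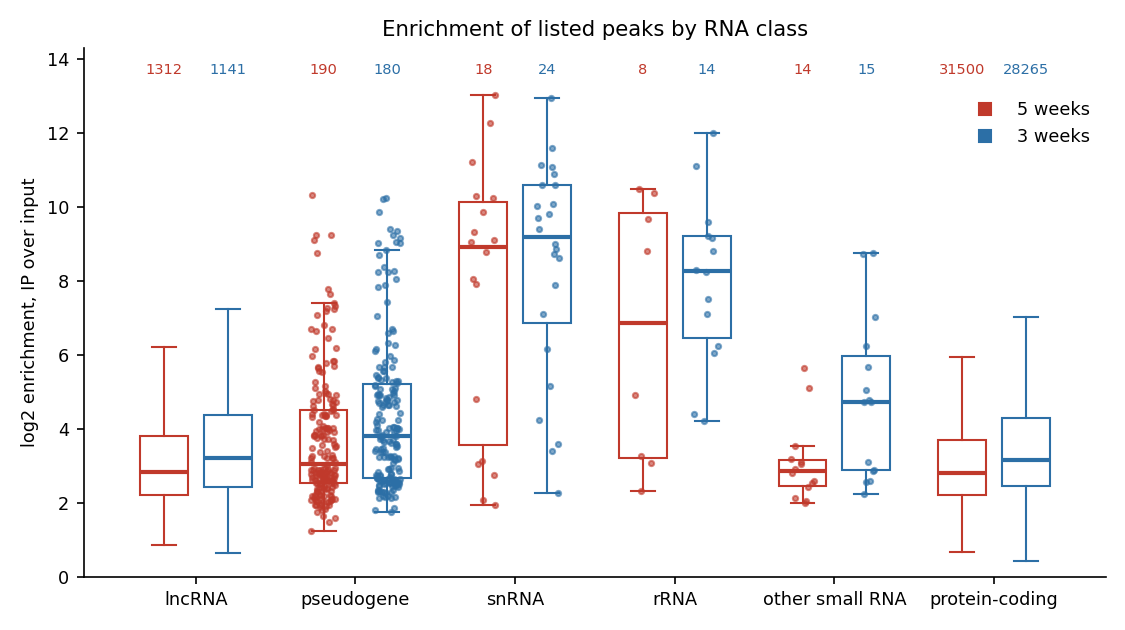
Log2 enrichment of IP over input (vertical axis) for each class of RNA, with 5 weeks left of 3 weeks and the number of peaks above each box. Boxes span the quartiles with the median as a thick line, whiskers reach 1.5 times the box, points are single peaks and are drawn only for classes under 300 peaks, and protein-coding stands for all other peaks. The snRNA medians of 8.92 and 9.20 lie well above the lncRNA medians of 2.83 and 3.23.

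These very strong peaks did not have the smallest p-values. The 68 non-coding peaks with a log2 enrichment of 8 or more at 5 weeks had p-values, as the authors' peak caller gave them for IP over input, with a median of 2.9e-06, and the 83 at 3 weeks had a median of 3.2e-06. Peaks with a log2 enrichment between 4 and 8 had much smaller p-values, with medians of 2.7e-19 (308 peaks) and 4.1e-25 (414 peaks). Of the very strong peaks, 1 at 5 weeks and 6 at 3 weeks had a p under 1e-12. No counts were given, so the reads behind these ratios are unknown.

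A copy of the spliceosomal RNA U6 had the strongest peak at each age. Unnamed lncRNAs were also among the 10 strongest peaks, with up to 11.38 at 5 weeks and 11.08 at 3 weeks. U6 had peaks in 9 gene copies at 5 weeks and in 14 at 3 weeks, 7 of them shared, with median log2 enrichments of 9.34 and 9.93. The copy LOC120102132 (chromosome 3, 105111125 to 105111224, plus strand) had the largest enrichment of any non-coding peak at 5 weeks, 13.03, and 10.58 at 3 weeks. The copy LOC120099556 (X, 30470375 to 30470474, plus strand) had 12.29 at 5 weeks and 12.94 at 3 weeks, where it led the list. LOC120096741 (chromosome 14, 9698992 to 9699091, minus strand) was nearly level, at 11.22 and 11.13. Of the 7 shared copies, 3 were lower at 5 weeks and 4 higher, so U6 showed no common direction.

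U2 snRNA, which pairs with the branch point of the intron, had peaks in 5 copies at each age, 4 of them shared. LOC120097991 had a log2 enrichment of 10.24 at 5 weeks against 11.09 at 3 weeks. LOC120103289 went the other way, with 9.87 at 5 weeks and 7.11 at 3 weeks. The single U1 copy was weak at both ages, with 1.95 and 2.26, and the shared U5 copy LOC120103378 had 2.07 and 3.60. U6atac, the counterpart of U6 in the minor spliceosome, had 1 copy at 5 weeks (2.76) and 3 at 3 weeks (4.24 to 8.73). The copies of these genes are close to identical and their reads can be shared between copies. The handling of such reads was not given in the sources used here, so the value of a single copy is uncertain.

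In the large rRNAs the peaks could be placed within the gene. The 28S gene on chromosome 3 (LOC120093067) had 1 peak at each age, over bases 3776 to 4200 of 4801 at 5 weeks and bases 3826 to 4175 at 3 weeks, with log2 enrichments of 10.50 and 8.26. The 18S gene (LOC120102105) had 3 peaks at 5 weeks and 2 at 3 weeks. The strongest at 5 weeks covered the last stretch, bases 1626 to 1872 of 1872, with 9.67, and the others, at bases 676 to 1050 and 126 to 275, had 3.27 and 2.31. At 3 weeks 1 long peak over bases 676 to 1872 had 6.24 and a further one over bases 351 to 550 had 4.41. The m6A of 18S rRNA known from mammals lies near the 3′ end of the molecule and that of 28S rRNA in its 3′ part. The position of a peak of this width does not resolve a single base.

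**Figure D2:**
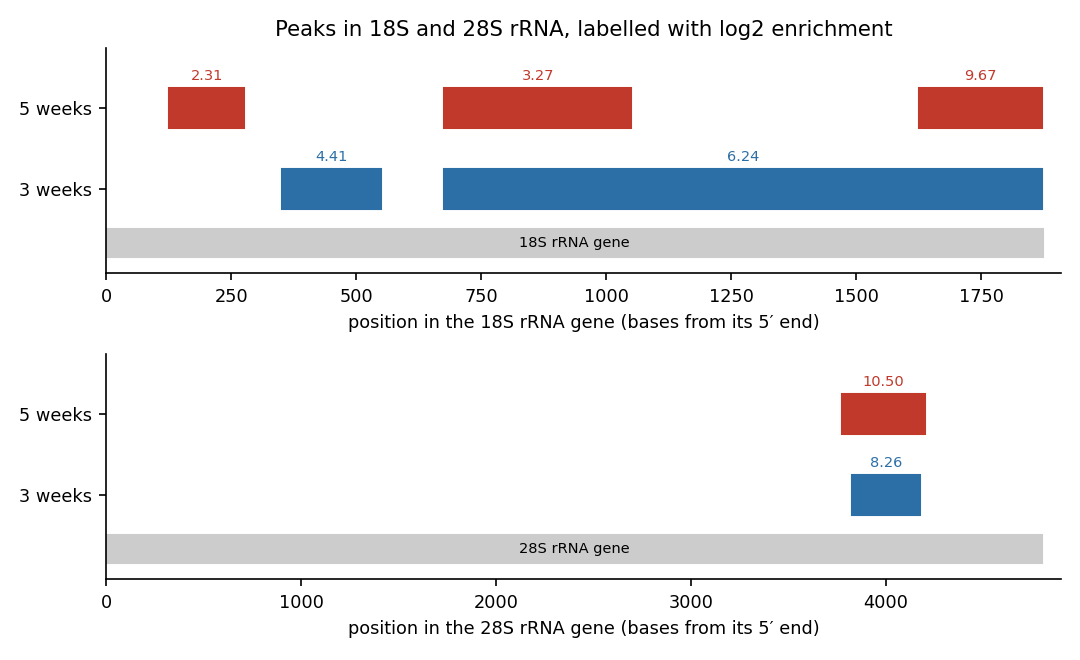
Peaks along the 18S and 28S rRNA genes, in bases from the 5′ end of the gene (horizontal axis), with 5 weeks above 3 weeks and the gene as a grey bar. Each block is a listed peak with its log2 enrichment over it, and the 28S peaks of 10.50 at 5 weeks and 8.26 at 3 weeks cover almost the same bases.

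The short rRNAs differed in the number of copies with a peak. The 5.8S rRNA had a listed peak in 2 gene copies at 5 weeks and in 9 at 3 weeks, with 1 copy in common. That copy, LOC120101316, had log2 enrichments of 10.39 and 12.01. The 5S rRNA had the same 2 copies at both ages: LOC120096078 with 8.82 at 5 weeks and 7.51 at 3 weeks, and LOC120098724 with 4.93 and 9.61. RefSeq lists both 5S copies as pseudogenes. The rRNAs and snRNAs do not carry a poly(A) tail of their own as mature molecules, while the libraries were made from poly(A)-selected RNA, and the amount of each RNA left after selection was not given.

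Y RNAs and 1 copy of SRP RNA had the smallest p-values among the small RNA peaks. Y RNAs bind the Ro60 protein, and the 2 listed genes lie beside each other on chromosome 4 between Ezh2 and Pdia4 on opposite strands. The plus-strand Y RNA had a log2 enrichment of 5.66 at 5 weeks against 7.04 at 3 weeks, and the minus-strand one 2.80 and 4.72. SRP RNA is the scaffold of the particle that brings nascent secreted proteins to the endoplasmic reticulum. Its copy on chromosome 8 had 3.54 and 5.68, its copy on chromosome 11 had 3.11 and 4.73, and its copy on chromosome 7 had 2.53 and 2.23. Vault RNA, a component of the vault particle, had 2.42 at 5 weeks and 8.75 at 3 weeks.

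SnoRNAs guide the modification of rRNA, and they were at the low end of the small RNAs. SNORD22 was alike at both ages, with 3.19 and 3.09. SNORA17 had 2.06 and 4.77. Snora71e (3.04) and the predicted snoRNA gene Gm22598 (1.99) were listed at 5 weeks alone, and a copy of the SNORA16 family (2.59) at 3 weeks alone.

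Of the microRNA genes, 1 was listed at both ages. Mir1949 had a log2 enrichment of 5.09 at 5 weeks against 2.57 at 3 weeks, but its peak spanned 2098 and 2048 bases on chromosome 18 for a hairpin of 97 bases. Mir431 (2.91), Mir708 (2.59) and Mir3592 (2.14) were listed at 5 weeks alone. The hairpin Mir431 lies within the span of Rtl1 on the opposite strand, in the imprinted region of Dlk1. The Mir708 peak spanned 113632 bases around a gene of 88 bases, so its label says little on the microRNA itself. Listed at 3 weeks alone were Mir3556b (8.74), Mir219a1 (6.24), Mir219-2 (5.06), Mir3597-2 (2.89) and Mir1843b (2.86). The product miR-219 is abundant in oligodendrocytes and in brain. The peak of Mir219a1, the hairpin that holds GGAC, ran over its whole length at chromosome 20, 4829687 to 4829796, plus strand, between Rxrb and Ring1.

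In the comparison of the ages, the difference was computed as the log2 enrichment at 5 weeks minus that at 3 weeks, and a row was called stronger or weaker at 5 weeks from a 2-fold difference up. Of the 441 non-coding rows, 81 (18.4%) were stronger, 246 (55.8%) were weaker and 114 differed by less than 2-fold. Over all 12691 rows, 10.6% were stronger and 46.9% weaker. The non-coding rows therefore held a larger share of both kinds than the whole table, and the weaker rows outnumbered the stronger in both. The median difference was -1.13 over the non-coding rows and -0.95 over the other rows.

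The downward shift was shared with the whole table. After centring on the median of all rows (-0.96), 102 non-coding rows were stronger (23.1%) and 122 weaker (27.7%), against 18.0% and 13.3% of all rows. The split of stronger to weaker calls was thus 24.8% to 75.2% as deposited and 45.5% to 54.5% after centring. The comparison holds only rows with a p-value under 0.05. Over the 926 non-coding peaks that could be paired between the separate lists, with no p-value limit on the difference, the median was -0.26, and 572 (61.8%) were lower at 5 weeks. Pairing needs a listed peak at both ages. It leaves out the 528 non-coding peaks at 5 weeks and 355 at 3 weeks without a partner, which may have differed more. For the other 21304 paired peaks the median was -0.31, and 69.3% were lower. In these pairs 196 non-coding peaks (21.2%) were at least 2-fold lower and 92 (9.94%) at least 2-fold higher, against 15.6% and 4.86% of all paired peaks.

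**Figure D3:**
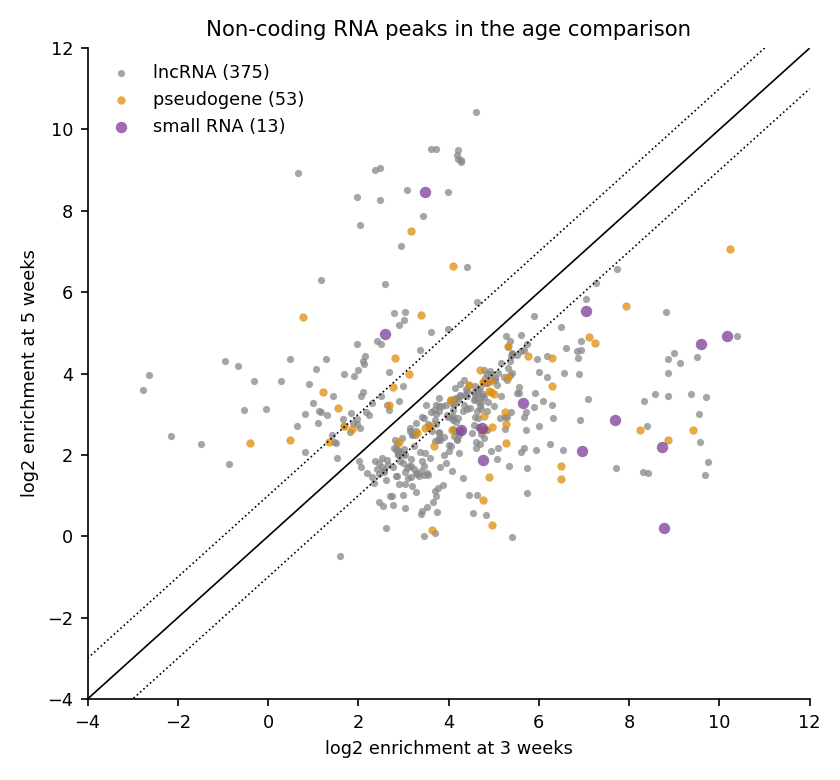
Log2 enrichment at 5 weeks (vertical axis) against that at 3 weeks (horizontal axis) for the 441 non-coding rows of the age comparison, coloured by class of RNA. The solid line marks equal values and the dotted lines a 2-fold difference; 246 rows lie at or under the lower dotted line and 81 at or above the upper one, and few rows lie along the solid line in this list, which holds rows with a p-value under 0.05.

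By class, the small RNAs had 11 weaker rows and 2 stronger among 13. The pseudogenes had 29 weaker and 10 stronger among 53, and the lncRNAs 206 weaker and 69 stronger among 375. The weaker shares were 84.6%, 54.7% and 54.9%, against 55.8% of all non-coding rows and 46.9% of all rows. The stronger shares were 15.4%, 18.9% and 18.4%, against 18.4% and 10.6%. The median differences of the 3 classes were -2.89, -1.32 and -1.07. The small RNA rows all passed the 2-fold limit, and 9 of the 11 weaker ones did so after centring as well.

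All 3 rRNA rows were weaker at 5 weeks. The 5S copy LOC120098724 had a log2 enrichment of 4.74 at 5 weeks against 9.60 at 3 weeks, the 5.8S copy LOC120101957 had 2.87 and 7.69, and the first part of the 18S gene, at bases that hold a 5-week peak in the separate list, had 2.09 and 6.95. Their differences lay between -4.87 and -4.83. The separate lists differ from this for the 5.8S copy and this part of the 18S gene: LOC120101957 had a listed peak at 5 weeks (3.09) and none at 3 weeks, and at those 18S bases a peak was likewise listed at 5 weeks (2.31) alone. Other rRNA peaks of the separate lists were higher at 5 weeks: the 28S gene (10.50 against 8.26) and the 5S copy LOC120096078 (8.82 against 7.51). The 3′ end of the 18S gene had 9.67 against 6.24 for the long 3-week peak. That long peak also covers bases 676 to 1050, where the 5-week value was lower (3.27). The 5.8S copy LOC120101316 was lower as well (10.39 against 12.01). None of these peaks was among the rows of the comparison.

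Both Y RNAs and the SRP RNA copy on chromosome 8 were weaker, and they were among the 10 weaker non-coding rows with the smallest p in the deposited comparison. The Y RNA values were 5.53 at 5 weeks and 7.05 at 3 weeks for the plus-strand gene, and 2.67 and 4.73 for the minus-strand gene. The SRP RNA had 3.29 and 5.65. After centring on all rows, the difference of the plus-strand Y RNA was -0.57 and no longer past 2-fold, while that of the minus-strand Y RNA (-1.11) and of the SRP RNA (-1.40) stayed past it.

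Among the remaining small RNAs, vault RNA had 2.19 at 5 weeks and 8.72 at 3 weeks, and Mir3556b had 0.21 and 8.77, the largest difference of all non-coding rows (-8.56). SNORA17 had 1.87 and 4.77, and U6atac 2.62 and 4.27. U6 moved in both directions: the copy Rnu6-886 had 4.93 and 10.16, and the copy LOC120100161 had 8.45 and 3.49, although its peak was listed at 3 weeks (3.40) and not at 5 weeks. In all, 3 of the 13 small RNA rows had no listed peak at the age of the higher value. Mir1949 was the other small RNA row with the higher value at 5 weeks, 4.97 against 2.60.

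**Figure D4:**
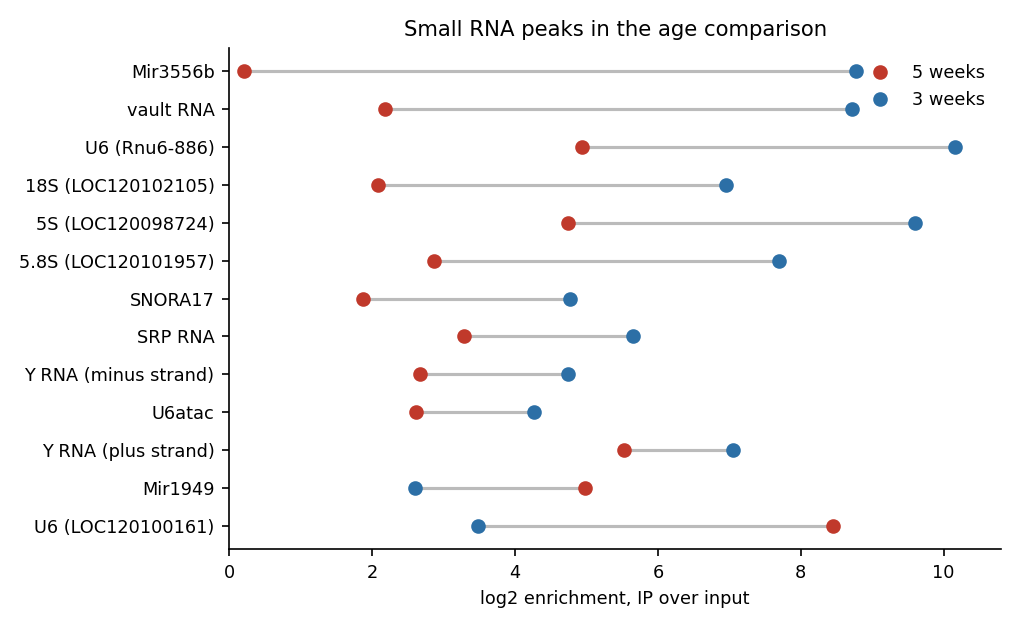
Log2 enrichment of IP over input (horizontal axis) at 5 weeks (red) and 3 weeks (blue) for each of the 13 small RNA rows of the age comparison, joined by a grey line. The value at 5 weeks is the lower one in 11 rows, from Mir3556b (0.21 against 8.77) to the plus-strand Y RNA (5.53 against 7.05), and the higher one for Mir1949 and the U6 copy LOC120100161.

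The symbols of 20 genes mark them as pseudogene copies of coding genes. They had 35 peaks at 5 weeks and 30 at 3 weeks with medians of 2.90 and 3.26. Several were steady. Hsp90aa1-ps17, a copy of a cytosolic HSP90 gene, had a strongest peak of 5.32 at 5 weeks and 5.31 at 3 weeks, and Metap2-ps1, a copy of a methionine aminopeptidase gene, had 5.97 and 5.86. Eif4g1-ps1, a copy of the scaffold of the translation initiation complex, had 7 peaks at each age, among the most of any non-coding gene, at log2 enrichments of 1.94 to 2.93 and 2.31 to 3.25. Eno1-ps6 and Rpl13a-ps4 were listed at 5 weeks alone and Vdac1-ps11 at 3 weeks alone. Reads of such copies can be shared with the parent gene.

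In the comparison, 8 rows came from these copies, 3 stronger, 3 weaker and 2 under 2-fold. St13-ps2, a copy of the gene for the Hsp70-interacting protein, was the stronger non-coding row with the smallest p of the deposited comparison. It had a log2 enrichment of 6.65 at 5 weeks against 4.09 at 3 weeks (chromosome 6, 56435620 to 56436721, minus strand). Chmp6-ps1 had 5.45 and 3.38. The first peak of Eif4g1-ps1 had 3.15 and 1.54. Atmin-ps2 was weaker in both of its rows, with 0.90 against 4.76 and 2.61 against 4.08, and Nufip2-ps1 had 4.90 and 7.10. Morf4l1-ps4, with 3.71 and 4.46, was among those under 2-fold.

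A further group carried the symbol of a gene that RefSeq lists as protein-coding, although the deposited files typed it as lncRNA or pseudogene. It covered 105 symbols, 58 typed as lncRNA and 47 as pseudogene, of which 89 had a peak at both ages, 10 at 5 weeks alone and 6 at 3 weeks alone. Over all non-coding genes these counts were 702, 184 and 148. Of all non-coding peaks the group took 14.5% at 5 weeks and 13.0% at 3 weeks, with medians of 2.68 and 3.31. In the comparison the group gave 78 rows, of which 46 were weaker (59.0%) and 6 stronger (7.69%). Over all rows of the comparison the shares were 46.9% and 10.6%. After centring on all rows, 23.1% of the group were weaker and 16.7% stronger, against 13.3% and 18.0% of all rows. Whether the peaks lie in the coding transcript or in a non-coding one beside it could not be read from the files.

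The rows of this group with the smallest p were weaker at 5 weeks. Tspyl1, a TSPY-like gene of the nucleosome assembly family, had 3.07 at 5 weeks and 4.31 at 3 weeks on the minus strand. Ubl3, a membrane-anchored ubiquitin-like protein, had 3.60 and 4.62. Rapgef2, an exchange factor for the small GTPase Rap, had 3.92 and 5.32 over 1 row, while a second row of 100 bases on the same gene had 2.36 and 0.48, the higher value at 5 weeks. Sptssb, a small subunit of the enzyme that starts sphingolipid synthesis, had 3.72 and 5.08. After centring, these differences were below 2-fold except that of the second Rapgef2 row. Dock1, an exchange factor for Rac, was stronger in both of its rows, with 2.30 against -0.41 and 2.71 against 1.69.

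Some genes of this group have known roles in the hypothalamus or in neurons and were picked after their values were seen. Npy2r, the Y2 receptor of neuropeptide Y, had 3.49 at 5 weeks and 5.00 at 3 weeks. Chat, the enzyme that makes acetylcholine, had 1.47 and 4.89, and no Chat peak was listed at 5 weeks. Cebpa, a transcription factor of the C/EBP family, had 2.16 and 5.10. Gng2, a G protein gamma subunit, had 7 peaks at each age, the strongest at 6.54 and 8.35, and its single row in the comparison differed by less than 2-fold (2.94 against 3.40). Ctxnd1 was weaker in 3 of 3 rows. After centring on all rows, the difference of Npy2r (-0.56) and Ctxnd1 differences of -0.80 and -0.59 were below 2-fold. Those of Chat (-2.47), Cebpa (-1.99) and the remaining Ctxnd1 row (-1.01) stayed near 2-fold or past it. Tac1, of the same group, went the other way in the lists, with a peak at 5 weeks alone (1.60), and had no row in the comparison. Rhob, a small GTPase, was lower at 5 weeks in 4 of 4 rows, and 1 of these passed 2-fold (1.80 against 2.99).

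The lncRNAs without a symbol were the largest group, with 1034 peaks at 5 weeks and 900 at 3 weeks. None of the 1312 lncRNA peaks at 5 weeks or the 1141 at 3 weeks overlapped the span of any of the 13691 protein-coding genes that have a row in the files, on either strand, while 22 pseudogene peaks and 10 small RNA peaks at 5 weeks did. The lncRNA peaks in the lists are therefore intergenic with respect to these genes. How the annotation labels a peak that also lies in a coding gene was not given. The count of 0 thus describes the lists and not where lncRNAs carry m6A. Many were near one, however. Of the unnamed lncRNA peaks at 5 weeks, 207 (20.0%) lay on the same strand within 5 kb beyond the 3′ end of a coding gene, 114 (11.0%) lay within 5 kb of the start of a coding gene on the opposite strand, and 490 (47.4%) lay farther than 5 kb from any. The shares at 3 weeks were 19.3%, 12.8% and 46.7%.

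Enrichment differed by place. The peaks just beyond a 3′ end had medians of 2.54 at 5 weeks and 2.79 at 3 weeks, and those beside a divergent start had 3.11 and 3.78. Those farther than 5 kb from any coding gene had 3.08 and 3.51, so at 5 weeks they were level with the divergent starts. In the comparison the peaks beside a divergent start had 24 weaker and 7 stronger rows among 31 (median -1.91), and those beyond a 3′ end 30 weaker and 6 stronger among 55 (median -1.04). Those farther than 5 kb away had 65 weaker and 36 stronger among 132 (median -0.96). Over all rows of unnamed lncRNAs, 53.7% were weaker and 20.5% stronger, against 46.9% and 10.6% of all rows of the comparison.

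The weaker non-coding row with the smallest p was an unnamed lncRNA of the X chromosome, ENSRNOG00000065796 (68495909 to 68497083, minus strand), with 2.91 at 5 weeks and 4.09 at 3 weeks. ENSRNOG00000063731 (chromosome 13, 51065016 to 51066240, minus strand), between Crb1 and Aspm, had 4.81 and 6.93. Another unnamed lncRNA peak on X (107368331 to 107369280, minus strand), 0.016 kb from the end of the plus-strand gene Pak3, had 3.85 and 5.29. The X chromosome held 5.84% of non-coding peaks at 5 weeks and 4.73% at 3 weeks, against 3.36% and 3.12% of the other peaks. Of the 26 non-coding rows of X in the comparison, 15 were weaker (57.7%) and 2 stronger (7.69%). The shares were 55.8% and 18.4% over all non-coding rows, and 46.9% and 10.6% over all rows of the comparison. After centring on all rows, 7 rows of X were weaker and 5 stronger.

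Ranked by size among rows enriched at least 2-fold at both ages, the 10 largest differences upward at 5 weeks and 7 of the 10 largest downward were lncRNAs without a symbol or uncharacterised loci. The largest upward was 9.00 at 5 weeks against 2.36 at 3 weeks, at an unnamed lncRNA 0.010 kb from Tulp4 on chromosome 1. The largest downward was 1.52 against 9.67, at an unnamed lncRNA 1.71 kb from Ankrd11 on chromosome 19. Without the limit on both ages, ENSRNOG00000066355 (chromosome 1, 38669383 to 38669657, minus strand) had the largest upward difference, with 8.92 against 0.65. All 43 non-coding rows with a log2 enrichment of 8 or more at an age passed 2-fold, 16 stronger and 27 weaker, with a median absolute difference of 5.62 on the log2 scale. They were picked by the higher of their 2 values, from a list with p-values under 0.05, so large differences follow in large part from that choice. The same count over all rows of the comparison was not made. Without these 43 non-coding rows, 65 rows were stronger and 219 weaker.

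Peaks often came as overlapping pairs on opposite strands. Of the non-coding peaks, 116 at 5 weeks (7.52%) and 123 at 3 weeks (8.95%) overlapped a peak of the other strand over at least 50% of both, and the partner was itself a non-coding peak in all but 2 and 3 cases. An overlap with a peak of the other strand was found for 0.737% and 0.902% of the other peaks. Since no lncRNA peak overlapped the span of a listed coding gene, the non-coding partners of lncRNA peaks follow from the annotation. The enrichment of the partners was close, with a median absolute difference of 0.28 at 5 weeks (59 pairs) and 0.27 at 3 weeks (63 pairs) on the log2 scale. Partners share the same locus and the same libraries, so their likeness is not independent evidence. The libraries were made with a dUTP-marked second strand, while the use of strand in counting was not given in the sources used here, so reads of the 2 strands could not be told apart here.

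In the comparison 20 such pairs were found, and the partners had the same sign in all 20, with 16 pairs lower and 4 higher at 5 weeks. The correlation of their differences across the 20 pairs was 0.98. The pseudogene St13-ps2 was paired with ENSRNOG00000065241 on the plus strand, which had 6.62 at 5 weeks and 4.42 at 3 weeks, beside 6.65 and 4.09 for St13-ps2. The pair of unnamed lncRNAs between Osgepl1 and Ormdl1 on chromosome 9 had 9.52 against 3.72 and 9.51 against 3.60. Tspyl1 was listed on both strands, with 2.37 against 3.77 on the plus strand beside 3.07 against 4.31 on the minus strand. Counted once per pair, 78 rows were stronger and 239 weaker.

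**Figure D5:**
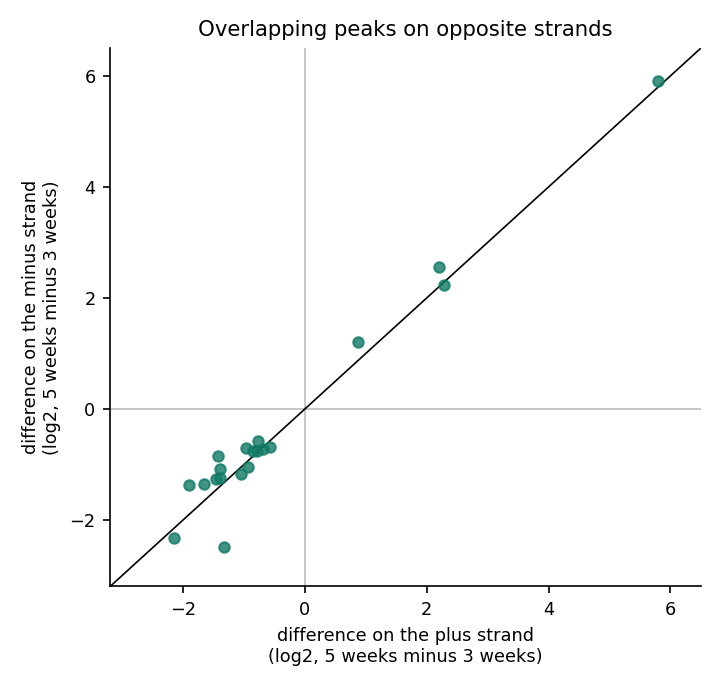
Difference of log2 enrichment, 5 weeks minus 3 weeks, on the minus strand (vertical axis) against the plus strand (horizontal axis) for the 20 pairs of overlapping rows in the age comparison. The line marks equal values, and all 20 pairs have the same sign on both strands.

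At the level of peaks, 1014 of the 1542 at 5 weeks (65.8%) and 1019 of the 1374 at 3 weeks (74.2%) overlapped a same-strand peak of the other age, fewer than the 74.9% and 83.6% of other peaks. Peaks with a partner were stronger, with medians of 3.19 at 5 weeks and 3.52 at 3 weeks, than those without one, with 2.41 and 2.91. By symbol or identifier, 702 genes had a non-coding peak at both ages, 184 at 5 weeks alone and 148 at 3 weeks alone. The same split was not counted over genes with other peaks, so whether these numbers are unusual for the lists was not tested.

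The strongest genes listed at 5 weeks alone were unnamed lncRNAs, led by a pair on opposite strands of chromosome 1 between Afdn and Dact2 with log2 enrichments of 11.38 and 10.60. Among those with a symbol were the U6 gene Rnu6-698 (9.10), Sertm2 (3.78), Gng10 (3.13) and the complement gene C7 (2.79). The strongest listed at 3 weeks alone were a 5.8S rRNA copy, LOC120095374 (11.12), and the U6 genes Rnu6-886 (10.09), LOC120095349 (10.04) and LOC120095816 (9.81). C7 shows how far a missing row can be from a missing signal: the comparison held C7 rows with 1.40 against 6.48 and 1.73 against 6.49, the higher values being those at 3 weeks.

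Most non-coding genes had a single peak, 526 of 896 at 5 weeks (58.7%) and 548 of 857 at 3 weeks (63.9%), against 34.8% and 38.8% of the genes with other peaks. The gene with the most was LOC102547183 on chromosome 1, with 11 peaks at 5 weeks and 7 at 3 weeks over a gene of 43.9 kb and log2 enrichments from 1.26 to 3.26 and from 1.31 to 3.08. LOC103690870 on X had 9 and 4 peaks, and LOC120102485 on chromosome 4 had 8 and 5. Of the 41 well-known lncRNA symbols that were looked up, among them Malat1, Neat1, Xist and Meg3, none was a symbol of a non-coding peak, and Tug1 was found under a coding annotation alone. The unnamed genes may include some of these, which the files do not pair with names.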

How the data were processed

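MeRIP-seq of 4 libraries was used, 1 IP and 1 input library at each age. The submitters' processing notes name fastp 0.19.4 and HISAT2 2.0.4, and the paper names Cutadapt for adaptor trimming; they name the human build GRCh38, while chromosomes and identifiers are those of rat, so positions are given as listed, with no build. The names of the peak caller, its scaling method and its gene models were not given in the sources used here. Each peak was deposited by the authors with a log2 enrichment of IP over input, a p-value and adjusted p-value, and the peak length. Starts were counted from 0 in the files and are printed from 1. The deposited comparison also holds the authors' log2 fold change and direction, which were not used. Its p-value served only to order rows, and its adjusted p-value only as a limit in an alternative setting for the stronger and weaker counts. Mitochondrial rows were left out.

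The difference was computed as the 5-week minus the 3-week log2 enrichment of a row. Peaks were paired between ages by an overlap of 1 base on the same strand, each being the other's best partner. Scripts ran in Python 3.11.15 with pandas 2.3.3 and were tested on simulated data. Named items were the listed small RNAs and pseudogenes, the 10 largest and the 10 smallest p in each direction, the 10 strongest peaks of each age, the 5 genes with most peaks and the 5 strongest at 1 age alone, with up to 4 examples of longer lists. The members and lists were chosen with earlier results of these data known. Symbols were matched to RefSeq (GRCr8) by name, and 247 of 313 matched.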

Additional observations from a re-analysis of the deposited data

How the results depend on the processing

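Of 58 alternative settings over 14 results, 46 left the value within 1.5 times of a count, or within the 95% interval of a median, and none changed a direction. With genes that carry a name alone, 145 peaks at 5 weeks and 116 at 3 weeks remained, and the comparison gave 3 stronger and 35 weaker rows. This set was defined by symbol and still holds many genes typed as lncRNA that RefSeq lists as protein-coding. It is therefore not a set of established non-coding RNAs. A 4-fold limit gave 115 weaker rows, and centring on all rows gave 122. The median difference was -0.26 over peaks paired between the lists and -0.18 after centring on all rows. Taking 1 peak per gene, the strongest, raised the median log2 enrichment to 3.43 at 5 weeks and 3.98 at 3 weeks, and peaks with a partner at the other age had medians of 3.19 and 3.52. The alternatives chosen after seeing the data kept the results they were run for within these limits. Leaving out RefSeq protein-coding genes was run for the weaker and stronger counts, the peak counts and the medians at each age, counting opposite-strand pairs once for the weaker and stronger counts and those medians, and leaving out log2 enrichments of 8 or more for the weaker and stronger counts and the median difference. Overlap by exonic blocks was not run, since the files give no blocks. No paired analysis was possible because each age has 1 IP and 1 input library and no replicate numbers. With 1 pool per age, animal, pool, library and age cannot be told apart, and depth is unknown.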
